A study of Caenorhabditis elegans with 15 samples.

Results

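The untreated day 1 adults of the N2 strain, the wild-type laboratory strain of the nematode Caenorhabditis elegans, were described here at the level of their whole transcriptome. They are the 5 samples labelled Control among the 15 samples of a study of nanoparticle exposure, and they were taken by that label alone. The other 2 groups were worms given 10 µg/ml of silver (Ag) nanoparticles, with 5 samples, and worms given 10 µg/ml of silica (SiO2) nanoparticles, with 5 samples, against 0 µg/ml in Control. In all groups 350 to 400 L1 larvae per well were kept for 72 h at 21 °C in 12-well plates, with the bacterium E. coli OP50 as food, and harvested on day 1 of adulthood. The study's methods put the particles with the larvae from the L1 stage on, whereas the sample labels place the incubation at the adult stage. Whole worms were used, so that every tissue contributed to each library, and no transgene or mutation is named for any group. The labels do not say whether the wells of a group came from separate worm cultures, so that each SD and p-value here measures the spread between these samples, which may be technical.

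A young adult hermaphrodite invests heavily in reproduction. Its intestine, the organ of digestion and of fat storage, also makes the vitellogenins, the yolk proteins that are secreted into the body cavity and taken up by growing oocytes. Its germ line has switched from sperm to oocytes, its epidermis has laid down the adult cuticle, which is built mainly of collagens, and its body wall muscles and neurons are fully formed.

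The 5 Control samples held 19556340, 17984485, 21504225, 23678845 and 17693844 reads counted to genes, in the order of replicates 1 to 5, and between 19211 and 19730 of the 46778 genes in the table had a read in a given sample. A level of 1 CPM, the unit that scales the reads of a gene to all reads counted in that sample, therefore stood for 17.7 to 23.7 reads. No pair of samples agreed within sampling noise, and all 5 were counted as separate samples. The samples were not equally alike. Replicates 2 and 3 were closest, with a median absolute difference of 0.0961 on the log2 scale over genes of at least 10 CPM, and replicates 1 and 5 differed by a median of 0.161. By this median the widest pair was replicates 2 and 5, at 0.276. By the number of genes that differed at least 2-fold it was replicates 1 and 4, with 146 genes, against 36 between 2 and 5. Replicates 1 and 5 thus stood somewhat apart from replicates 2, 3 and 4, and replicate 4 alone had 31 genes at least 2-fold below the median of the other 4 Control samples. The count of variable genes and the SDs of the genes that rest on these samples are given with and without them. Such genes were named because these samples stood apart in them, so a lower SD without the samples is in part built into the choice.

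Genes were placed in 4 level classes by their mean CPM over the 5 samples. The abundant class, of at least 100 CPM, held 2058 genes, or 4.40% of the table, and took 68.5 ± 0.689% of all reads (SD, n = 5). The moderate class, from 1 to 100 CPM, held 12059 genes and 31.3% of the reads. Another 7558 genes were barely detected, with at least 1 read in the 5 samples but a mean under 1 CPM, and they took 0.174% of the reads together. The remaining 25103 genes had no read in any of the 5 samples, and 15363 of these were annotated as piRNA genes. These were all piRNA genes of the table, and 633 of 634 tRNA genes and 250 of 258 miRNA genes were also unread. Whether these libraries of 100-base reads could hold such short RNAs was not tested. A gene without reads is therefore not shown to be silent in the worms. At the borders of the classes, lin-28 (100.02 CPM) lay just inside the abundant class and F45F2.10 (99.99 CPM) just outside it, and try-13 (1.0002 CPM) and fut-4 (0.9991 CPM) lay on either side of 1 CPM.

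The classes differed in what kind of gene they held. Of the 2058 abundant genes 2038 were protein coding, and protein coding genes took 97.9% of the reads. The barely detected class held 5130 protein coding genes, 1082 pseudogenes and 979 non-coding RNA genes, and only 919 protein coding genes had no read at all. For protein coding genes the median length of the exons joined together was 1983 bases for abundant, 1342 for moderate, 975 for barely detected and 765 bases for undetected genes. Since a long transcript yields more reads than a short one at the same number of molecules, this order is in part built into a ranking by CPM, and CPM values of different genes give their share of the reads, not their relative number of molecules. To compare levels between genes a per-kilobase scale is given, the reads per kilobase of joined exons rescaled to the same sum in every sample (TPM).

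The classes were also spread unevenly over the chromosomes. Chromosome III, with 13.2% of all protein coding genes, held 18.3% of the abundant and 8.07% of the barely detected ones. Chromosome V, which holds large families of receptor genes, had 25.1% of all protein coding genes but 35.7% of the barely detected and 49.7% of the undetected ones. On chromosome V 53.8% of the protein coding genes reached 1 CPM, against 81.9% on chromosome III and 76.7% on X. By this count X lay within the range of the autosomes, but the median level of its protein coding genes over 1 CPM was 15.97 TPM, next to 29.4 TPM on chromosome I and 28.97 TPM on III, and close to the 16.2 TPM of V. Of the protein coding genes on X 9.44% were abundant, on chromosome I 13.4%, on II 9.525% and on V 6.90%, so that X lay within the autosomal range here too.

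Reads were concentrated on few genes. The 10 genes with the most reads took 10.3 ± 0.445% of all reads, the 20 highest took 13.0% and the 100 highest took 23.4 ± 0.940% (SD, n = 5), while the 1000 highest took 54.6%. The 20 highest were led by yolk genes. Vit-2, a vitellogenin gene on chromosome X from 5101042 to 5106169 in the WBcel235 build, ranked highest with 30619, 36440, 37053, 31664 and 30977 CPM in replicates 1 to 5, a mean of 33351 ± 3130 CPM. Vit-6 (chromosome IV, 8261157 to 8266459) had 15379, 14672, 17530, 16736 and 17263 CPM. Vit-5 (chromosome X, 3403471 to 3408603) had 6558, 7108, 8385, 8820 and 6919 CPM. The ranges of these 3 vitellogenin genes did not overlap, and their order was the same in all 5 samples.

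Digestive proteases of the gut were also among the 20. Asp-1, a cathepsin D-like aspartyl protease gene of the intestine on chromosome V from 19049562 to 19050752, had 11210, 13298, 10154, 8707 and 10912 CPM, with replicate 2 highest and replicate 4 lowest, and its mean of 10856 CPM ranked between vit-6 and vit-5. Asp-6, a gene of the same family, had 6470, 9109, 7139, 6180 and 6209 CPM, again with replicate 2 highest. Asp-3 (3280 CPM) and asp-5 (2442 CPM) of that family and cpr-1 (2090 CPM), a cathepsin B-like cysteine protease gene, were further proteases. Fat-2 (2313 CPM), a fatty acid desaturase gene, and clec-63 (3243 CPM), a C-type lectin gene, were also among the 20. Pmt-1 (2100.5 CPM), which encodes an enzyme of phosphatidylcholine synthesis, was another.

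The other members of the 20 belonged to the general machinery of the cell. Eef-1A.1 (7174 CPM) and eef-2 (5075 CPM) encode the translation elongation factors, and rpl-3 (2726 ± 73.9 CPM) a protein of the large ribosomal subunit. COX1 and COX3, subunits of cytochrome c oxidase encoded in the mitochondrial genome, had 4203 and 2775 CPM, and ant-1.1, the mitochondrial ADP/ATP carrier, had 4021 CPM. The ribosomal RNA gene rrn-3.1 had 9173, 5730, 7760, 6385 and 8504 CPM. Tts-1, a long non-coding RNA gene, had 3939 CPM, and WBGene00014309, annotated as a pseudogene on chromosome II, had 2353 CPM. The same top of the list was found in the exposed worms: 17 of the 20 genes were also among the 20 highest in Ag worms and 17 in SiO2 worms, and of the 100 highest genes 87 and 92 were shared with the 100 highest in Ag and SiO2 worms.

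**Figure D1:**
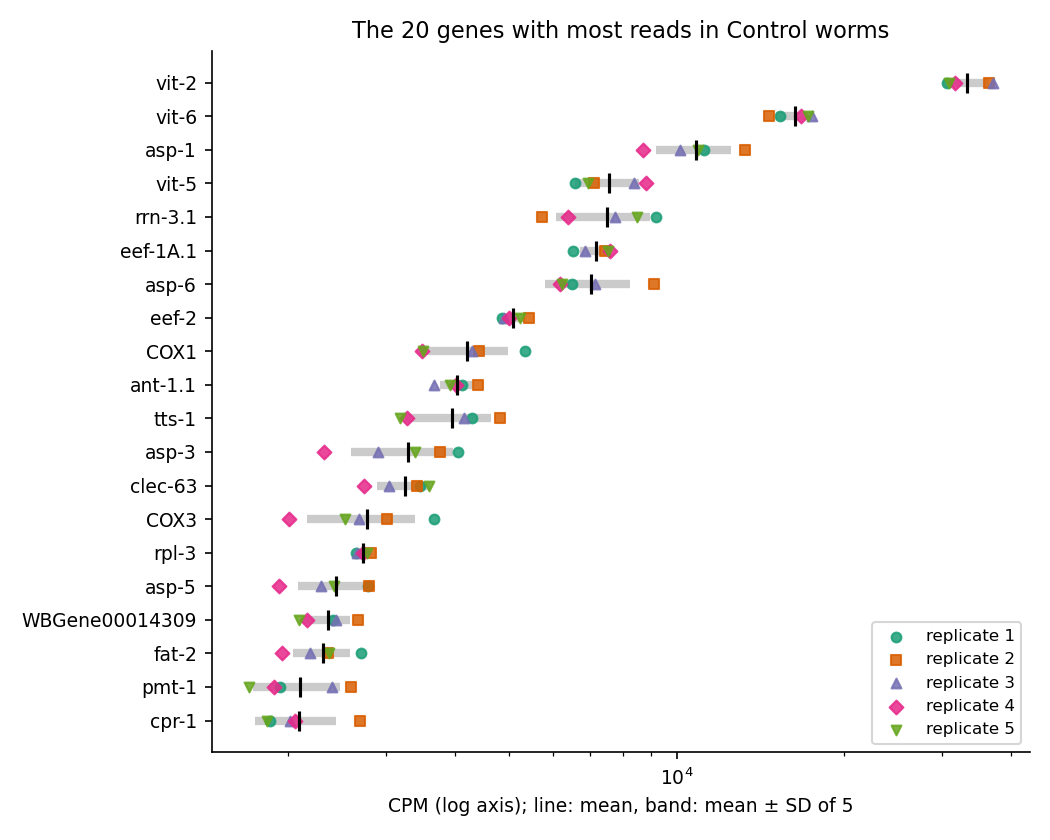
The 20 genes with the most reads in Control worms, one row per gene, with CPM on a log axis. Each symbol is 1 of the 5 replicates, the black line their mean and the grey band the mean ± SD. The vit-2 symbols lie between 30619 and 37053 CPM, to the right of all other genes, and rpl-3 has the narrowest band.

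The order changed on the per-kilobase scale. Among protein coding genes of at least 200 exonic bases asp-1 then stood highest at 11973 TPM, followed by vit-2 at 8900, asp-6 at 7242, spp-5 at 6184 and eef-1A.1 at 6148 TPM. Spp-5 encodes a small saposin-like antimicrobial protein of the intestine, and by the transcript-based estimates deposited beside the counts it had 659 CPM, against 1745 by counts. COX3 (4713 TPM), the ribosomal protein gene rpl-41.2 (4454 TPM), F53A9.8 (4410 TPM), vit-6 (4246 TPM) and ant-1.1 (4119 TPM) completed the 10 highest. F53A9.8 had 56.5 CPM by the estimates, against 887 by counts, and rpl-41.2 had 0 and 950 CPM, so the places of these 3 short genes differ with the method. The non-coding tts-1 reached 7279 TPM. Vit-2 therefore led by reads, and asp-1 per length.

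Lists of marker genes for tissues and functions were then read against these classes. As all tissues were in each library, fewer cells of a type and less RNA per cell cannot be told apart in these shares. The lists hold mainly protein coding genes, and of all 19725 protein coding genes 69.3% reached 1 CPM, which is the background for the lists. Over all 46778 genes, piRNA and other non-coding RNA genes included, it was 30.2%. The defining markers of each tissue took very different numbers of reads: unc-54, the main myosin of body wall muscle, had 1027 CPM, col-19, an adult-specific cuticle collagen gene, 637, myo-2, a myosin of the pharynx, 223, glp-1, the Notch receptor of germline stem cells, 129, elt-2, the GATA factor of the intestine, 50.1, and rab-3, a synaptic vesicle GTPase gene, 44.3 CPM. Msp-3, a major sperm protein gene, had 2.04 CPM and end-1, an early embryonic GATA factor gene, 1.40 CPM. Of these markers col-19 was thus high and msp-3 low in worms labelled as day 1 adults. Of the 6 yolk genes 4 were abundant and 2 moderate. The stage of the worms was not tested by these single genes. Of 12 male-fate genes 4 were moderate and 8 barely detected, and the highest, dmd-4, had 4.75 CPM.

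Among the tissue lists, those of yolk and gut held the largest share. It is a share of the listed genes only and depends on which genes were listed, so it is not the share of RNA from the intestine. The 33 genes of the yolk and gut lists took 8.76 ± 0.533% of all reads (SD, n = 5), and all 33 reached 1 CPM, 19 of them in the abundant class. Of this share the 6 vitellogenin genes alone took 5.28, 5.84, 6.32, 5.74 and 5.55% in replicates 1 to 5. The 27 other gut genes, proteases, transporters and transcription factors among them, took 3.04, 3.62, 2.88, 2.62 and 2.90%, with replicate 2 highest. On the per-kilobase scale the yolk and gut lists together took 5.21%. The vitellogenin genes were uneven: vit-1 (157 CPM), vit-3 (62.6 CPM) and vit-4 (24.7 CPM) had far fewer reads than vit-2, vit-5 and vit-6. These gene copies are alike in sequence and the split between them is uncertain. The transcript-based estimates gave 11531 CPM for vit-5, 183 for vit-3 and 90.01 for vit-4.

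The germ line was broadly but not intensely covered. The 40 genes of the germ line list all reached 1 CPM, with 15 in the abundant class, but none of them was among the 100 highest genes, and the list took 0.465 ± 0.0908% of the reads. Its leaders were genes of RNA granules and maternal mRNA control: cgh-1, a DEAD-box helicase gene, had 531, 422, 496, 690 and 790 CPM, and cey-2, a Y-box protein gene, and car-1, an Sm-like protein gene, averaged 473 and 420 CPM. The oocyte and eggshell list was more abundant, with 22 of 32 genes in the abundant class, 10 moderate and a share of 0.837 ± 0.156%. Perm-4 (831 CPM), cbd-1 (816 CPM) and cpg-2 (805 CPM), all genes of the eggshell and its permeability barrier, led it.

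Sperm genes were at the other end. None of the 73 sperm genes was abundant, 48 were moderate, 24 barely detected and 1 was without reads, so that the share over 1 CPM, 65.8%, was close to that of all protein coding genes. The highest, spe-39, which also acts in vesicle traffic outside sperm, had 47.7 CPM. The 31 major sperm protein genes, which encode the motor protein of the crawling nematode sperm, took 0.00790% of the reads, and the highest of them, msp-36, had 7.25 CPM. These gene copies are near-identical, so that values of single msp genes are uncertain. Of the 25 genes listed for the early zygotic embryo 18 were moderate and 7 barely detected, led by pal-1, a caudal homeobox gene, at 87.1 CPM. In whole worms the reads of these genes cannot be assigned to embryos.

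Most body wall muscle genes were abundant. Of the 39 body wall muscle genes 33 were abundant and 6 moderate, and they took 1.44 ± 0.194% of the reads. Act-4, an actin gene, averaged 1328 CPM, sca-1, the calcium pump of the sarcoplasmic reticulum, 1095 CPM and pat-10, troponin C of body wall muscle, 1032 CPM. Unc-54 had 815, 1150, 1119, 1294 and 758 CPM in replicates 1 to 5, with replicates 1 and 5 below the rest. The pharyngeal muscle list of 22 genes, which also holds the genes named abu, took 0.114 ± 0.0289%. It had 5 abundant, 9 moderate, 6 barely detected genes and 2 without reads. All of its genes under 1 CPM were abu genes. The lowest of the others, ceh-22, had 14.9 CPM, so the wider scatter of this list lay in the abu genes.

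Cuticle collagens ranged from abundant to barely detected. Of 177 cuticle collagen genes 24 were abundant, 92 moderate, 58 barely detected and 3 without reads, and the 65.5% over 1 CPM lay near the 69.3% of all protein coding genes. Their median was 2.42 CPM, although the list as a whole took 1.53 ± 0.211% of the reads. Col-119 (chromosome IV, 8978926 to 8979795) had 1799, 2178, 2027, 1873 and 1689 CPM, and col-20 and sqt-3 averaged 1316 and 1218 CPM. The list of 133 genes of the epidermis and of molting had 13 abundant, 95 moderate and 25 barely detected genes, led by pdi-2 (1200 CPM), which encodes a subunit of the enzyme that hydroxylates collagen. Noah-1 (421 CPM), a gene of the apical extracellular matrix, and cut-2 (380 CPM), a cuticlin gene, came next. Of 55 epidermal peptide genes, many of them antimicrobial, none was abundant, 28 were moderate, 21 barely detected and 6 without reads. By the transcript-based estimates 18 of them reached 1 CPM, and the list took 0.0129% of the reads, against 0.0419% by counts.

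The neuron lists together took a small share of the reads, 0.568%, but most of their genes other than chemoreceptor genes reached 1 CPM. All 26 pan-neuronal genes reached 1 CPM, 9 of them in the abundant class, with a share of 0.314 ± 0.0316%. Their median was 79.9 CPM, next to 70.4 CPM for the germ line list. Of all 19725 protein coding genes 2038 were abundant. Unc-44, a giant ankyrin gene, had 647, 780, 874, 782 and 587 CPM, and egl-3, a proprotein convertase gene, and ida-1, a dense-core vesicle gene, averaged 312 and 298 CPM. Of 23 transmitter genes, for synthesis, transport, breakdown and receptors, 21 were moderate and 2 abundant. The abundant ones were tbh-1 (169 CPM) of octopamine synthesis and tdc-1 (114 CPM), the tyrosine decarboxylase gene. These 2 enzymes are also made in gonadal sheath cells. Of 31 FMRFamide-like peptide genes 30 were moderate and 1 barely detected, led by flp-28 (90.5 CPM), flp-1 (71.3 CPM) and flp-18 (64.8 CPM). Of 31 sensory genes 1, tax-6 (180 CPM), the calcineurin A gene, was abundant, and 26 were moderate.

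The chemoreceptor genes, by far the largest neuronal list, were at the floor. Of 1309 genes for G protein-coupled chemoreceptors none was abundant, 48 were moderate, 993 barely detected and 268 had no read. All 1309 together took 0.0334% of the reads and their median was 0.0449 CPM, close to 1 read per sample. Among families by name, 217 of 220 srh, 107 of 109 srw, 186 of 193 str and 70 of 71 srbc genes were under 1 CPM. Str-176 stood highest with 39.99, 54.8, 41.6, 43.3 and 38.7 CPM, followed by sri-40 with 17.5 CPM. Near the median level of 0.0449 CPM a gene read in few neurons cannot be told from one that is silent. A level of 1 CPM stood for 17.7 to 23.7 reads.

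**Figure D2:**
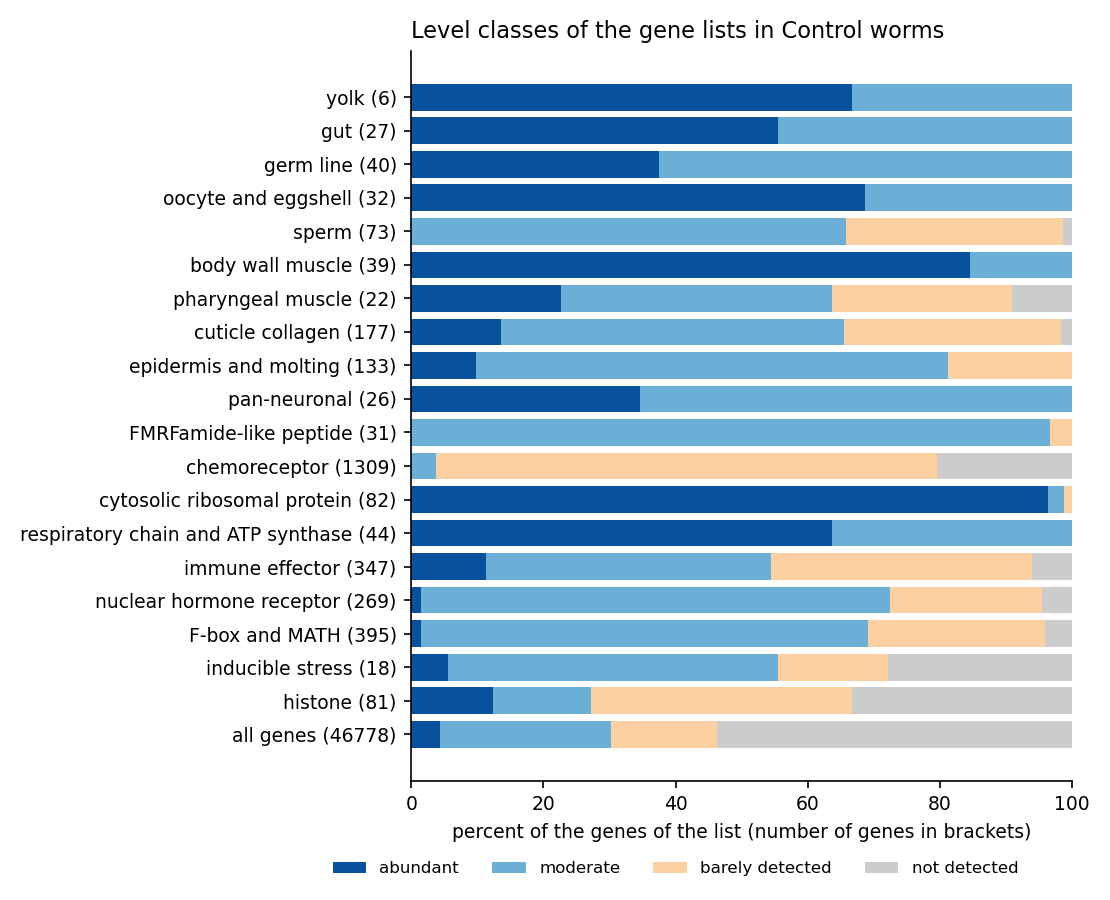
Percent of the genes of each list in the 4 level classes in Control worms, with the number of genes in brackets and all 46778 genes at the bottom. Nearly all 82 ribosomal protein genes and 33 of 39 body wall muscle genes are abundant, while 993 of 1309 chemoreceptor genes are barely detected.

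Genes of functions shared by all cells were mostly abundant. Of 82 cytosolic ribosomal protein genes 79 were abundant, and the list took 7.16 ± 0.189% of the reads. This is close in size to the share of gut and yolk, with a smaller spread between samples. The 100 genes with the most reads held 32 ribosomal protein genes, 5 translation factor genes and 5 genes of the mitochondrial genome, but also 9 genes of the yolk and gut lists, 5 of the cuticle lists, 4 of muscle and none of the germline or neuron lists. Of 42 translation factor genes 27 were abundant (2.31% of reads), of 44 nuclear genes of the respiratory chain and ATP synthase 28 (1.35%), of 33 proteasome genes 24, of 21 vacuolar ATPase genes 19 and of 22 chaperone genes 21. In contrast 1 of 69 mitochondrial ribosomal protein genes was abundant and the other 68 were moderate.

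Inducible and regulatory families had smaller shares of abundant genes than most of these shared functions. Of 18 inducible stress genes, heat shock genes among them, 1 was abundant, 9 were moderate, 3 barely detected and 5 without reads. By the transcript-based estimates 12 of the 18 reached 1 CPM, against 10 by counts. Nuclear hormone receptor genes, a family greatly expanded in nematodes, were mostly moderate, with 4 abundant, 191 moderate, 62 barely detected and 12 unread of 269. The F-box and MATH genes, many of which encode substrate adaptors of ubiquitin ligases, had 6, 267, 106 and 16 of 395 in the same classes. Over 1 CPM were 72.5% of the nuclear hormone receptor genes and 69.1% of the F-box and MATH genes, near the 69.3% of all protein coding genes. Immune effectors, such as lysozymes, were below the 69.3% of all protein coding genes, at 54.5% over 1 CPM, with 39 abundant, 150 moderate, 137 barely detected and 21 unread of 347. None of 39 insulin-like peptide genes was abundant and 22 were moderate. By the transcript-based estimates 14 of them reached 1 CPM, and the list took 0.00788% of the reads, against 0.0151% by counts. Of 81 histone genes 10 were abundant, 12 moderate, 32 barely detected and 27 unread, and the replication-dependent histone genes are near-identical copies whose counts are uncertain.

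The counts and the transcript-based estimates, which were deposited for the same libraries, differed for some genes. In the transcript-based estimates 36 genes that were under 1 CPM in the counts had at least 10 CPM, and 11 of them had no counted read. Among them pud-1.2, a member of a near-identical pair, had 0.839 CPM by counts and 822 by the estimates, and F44E5.4, a heat shock protein 70 gene with a near-identical neighbour, 0.731 and 24.3 CPM. In the other direction 45 genes of at least 10 CPM by counts were under 1 CPM in the estimates, and all 45 had under 500 exonic bases, with a median of 288. Rpl-41.2 had 950 CPM by counts and 0 by the estimates, and rpl-39 491 and 0 CPM. The share of the ribosomal protein list was 7.16% by counts and 4.92% by the estimates.

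The spread between the 5 replicates was measured as the SD of log2 CPM after scaling by edgeR's trimmed mean of M-values (TMM). Its median was 0.175 over the 9415 genes of at least 10 CPM. At an SD of at least 0.5 there were 78 variable genes, 0.828% of those 9415, and 71 of the 78 were protein coding and 7 pseudogenes. F55H12.2 (SD 0.504) was the last gene inside the threshold and T06A4.3 (SD 0.4998) the nearest outside. Genes of the same machinery varied little: the median SD was 0.0832 for vacuolar ATPase, 0.0863 for ribosomal protein and 0.0996 for respiratory chain genes. It was 0.329 for the germ line, 0.308 for oocyte and eggshell and 0.302 for collagen genes. The 10 steadiest genes of at least 100 CPM began with cpg-8 (SD 0.0196), a chondroitin proteoglycan gene with 130.2, 119.7, 125, 122.1 and 122.5 CPM, and allo-1 (SD 0.0271), an autophagy adaptor gene for the removal of paternal mitochondria. They also held trxr-1 (SD 0.0359), a thioredoxin reductase gene.

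**Figure D3:**
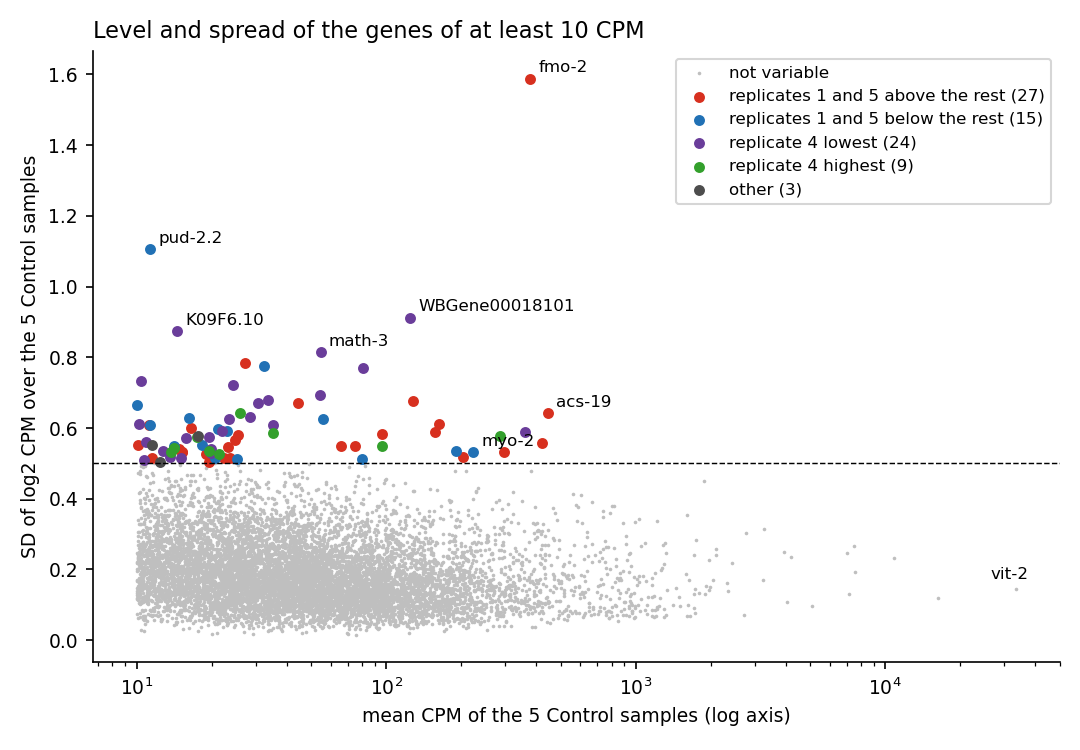
SD of log2 CPM over the 5 Control samples against mean CPM on a log axis, 1 point for each of the 9415 genes of at least 10 CPM. The dashed line marks an SD of 0.5, and colours give which replicates stand out for the 78 genes above it, the replicate 4 colours (24 and 9 genes) being for genes in which replicates 1 and 5 were neither both above nor both below. Fmo-2 lies highest at 1.59, and no gene of over 1000 CPM is above the line.

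Leaving out replicate 4 lowered the number of variable genes the most, to 51. It was 70 without replicate 1, 103 without replicate 5 and 77 without both. Replicate 4 was the lowest of the 5 for 41 of the 78 genes, or 52.6%, where it was the lowest for 20.7% of the 9415 genes, and it was the highest for 18 of the 78, or 23.1%, against 18.8%. Replicates 1 and 5 were both above the other 3 for 27 of the 78, or 34.6%, and both below for 15, or 19.2%, beside 25.3 and 25.5% of the 9415 genes. These counts overlap, and those for replicates 1 and 5 are near the shares over all genes. Fmo-2, a flavin-containing monooxygenase gene on chromosome IV from 10682524 to 10684367, varied most, with an SD of 1.59. It had 32.2, 25.7, 1275, 337 and 153 CPM in Ag worms, 427, 640, 637, 913 and 364 CPM in SiO2 worms, and 973, 81.1, 144, 102 and 593.5 CPM in Control worms. Replicates 1 and 5 were far above the other 3 Control samples, and all 3 groups overlapped. Without replicates 1 and 5 its SD among the remaining 3 samples was 0.41.

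Fmo-2 is a known target of the hypoxia-inducible factor HIF-1, and 8 such targets were listed after these values were seen. Replicates 1 and 5 were both above the rest in 5 of them, fmo-2, nhr-57, cysl-2, rhy-1 and egl-9. They were both below in F22B5.4, with 13.96, 18.02, 20.88, 28.25 and 10.23 CPM in replicates 1 to 5, and neither in phy-2 and cah-4. Of all 9415 genes 27.6% had replicates 1 and 5 both above in CPM and 24.03% both below. Since 4 of the 8 were already among the 78 variable genes, fmo-2, nhr-57 and cysl-2 included, this count is in part built into the choice of the list. Nhr-57, a nuclear hormone receptor gene on chromosome V from 4131889 to 4135102, had 33.7, 31.2, 39.9, 29.1 and 28.1 CPM in Ag worms, 43.9, 37.3, 62.1, 56.2 and 65.2 CPM in SiO2 worms, and 76.3, 28.3, 28.8, 29.1 and 59.7 CPM in Control worms. Replicates 2, 3 and 4 lay in the range of the Ag samples and replicates 1 and 5 above it. Cysl-2, a cysteine synthase-like gene that responds to hydrogen sulfide and cyanide, had 236, 125, 108, 103 and 245.5 CPM in the Control replicates. Without replicates 1 and 5 the SD was 0.02 for nhr-57 and 0.15 for cysl-2, against 0.67 and 0.61 over all 5. The choice of genes in which replicates 1 and 5 stood apart sets part of this drop.

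Of the 57 lipid metabolism genes of at least 10 CPM 3 were variable, or 5.26%, beside 0.828% of the 9415, and all 3 had replicates 1 and 5 above the rest. The list as a whole did not, with 12 of the 57, or 21.05%, above and 17, or 29.8%, below in CPM. These lay near the shares over all 9415 genes, 27.6% above and 24.03% below. Acs-19, an acyl-CoA synthetase gene on chromosome III from 3864489 to 3867098, had 827, 764, 1462, 1306 and 1094 CPM in Ag worms, 596.5, 350.4, 799.9, 1043 and 853 CPM in SiO2 worms, and 718, 278.5, 315, 293 and 624 CPM in Control worms. All 5 Ag samples were above all 5 Control samples, while the SiO2 samples overlapped both. Elo-5 and elo-6, the elongases of branched-chain fatty acids, had 245, 129.9, 136, 82.0 and 192.5 CPM and 664.5, 349.9, 369, 232 and 499 CPM in the Control replicates. Without replicates 1 and 5 the SD was 0.08 for acs-19, 0.40 for elo-5 and 0.36 for elo-6, against 0.64, 0.59 and 0.56 over all 5. In the germ line list 1 of 40 genes was variable, syp-3, which encodes a protein of the synaptonemal complex, with 34.8, 15.7, 23.02, 13.9 and 29.1 CPM.

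Among the 15 genes with replicates 1 and 5 lowest were collagen and epidermal genes. Col-93 had 16.7, 22.3, 28.6, 11.9 and 14.6 CPM in Ag worms, 35.4, 30.9, 42.5, 30.1 and 22.2 CPM in SiO2 worms, and 4.86, 12.7, 12.8, 13.1 and 6.90 CPM in Control worms. All 5 SiO2 samples were above all 5 Control samples, and the Ag samples overlapped Control. Wrt-4, a hedgehog-related gene of the epidermis, had 46.8, 85.1, 99.7, 106 and 61.2 CPM in Control. Without replicates 1 and 5 the SD was 0.03 for col-93 and 0.16 for wrt-4, against 0.67 and 0.51 over all 5. Pud-2.2 (SD 1.11, 3.43 to 17.9 CPM) is a near-identical copy of another gene, and its SD was 0.25 in the transcript-based estimates, where its mean was 631 CPM, so this value is uncertain.

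Some whole lists showed the same contrast of replicates. The collagen list took 1.31, 1.69, 1.69, 1.67 and 1.29% of the reads in replicates 1 to 5, and body wall muscle 1.29, 1.53, 1.54, 1.64 and 1.18%. In 49 of the 61 collagen genes and 30 of the 39 muscle genes of at least 10 CPM replicates 1 and 5 were both below the other 3 in CPM, against 24.03% of all genes. The germ line list went the other way in part, with 0.476, 0.361, 0.403, 0.485 and 0.598%, replicate 5 being highest and replicate 2 lowest. The oocyte and eggshell list had the same order of extremes, at 0.832, 0.663, 0.716, 0.923 and 1.05%. Replicates 1 and 5 were both above the rest in 44 of 69 mitochondrial ribosomal protein genes and 22 of 40 germ line genes, against 27.6% of all genes. The 12 mitochondrially encoded genes followed neither order, with 1.68, 1.46, 1.35, 1.18 and 1.18% and replicate 1 highest.

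**Figure D4:**
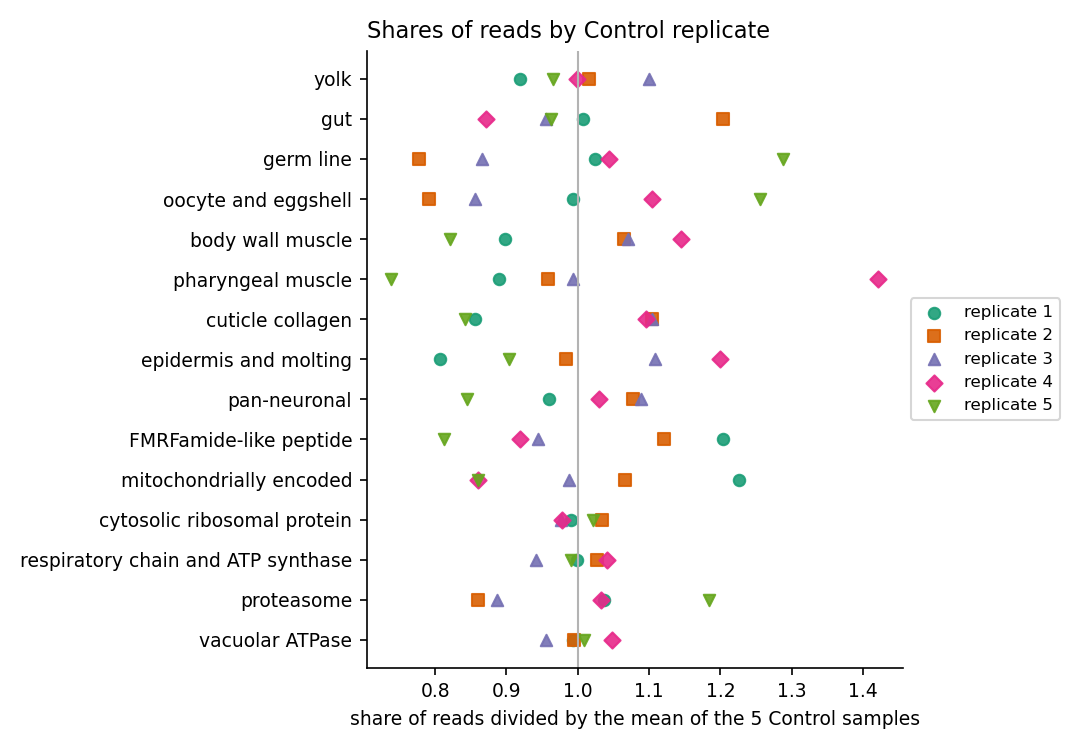
Share of the reads taken by each list in each Control replicate, divided by the mean of the 5, so that 1.0 is the mean. Replicates 1 and 5 lie to the left for body wall muscle and collagen, replicate 4 lies far to the right for pharyngeal muscle, and the vacuolar ATPase and ribosomal protein lists stay close to 1.0.

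Replicate 4 stood apart in a different set of genes. Of its 31 genes at least 2-fold below the median of the other 4 Control samples, 9 were pseudogenes and 5 were MATH or F-box genes, which made up 0.616 and 0.744% of the 9415 genes. On chromosome V lay 12 of the 31, on II 9 and on IV 8, where 17.1, 16.9 and 16.4% of the 9415 lay. In 30 of the 31 the level was also lower than in all 14 other samples of the series. The genes were chosen by replicate 4 being low among the Control samples, so that choice sets part of this count. Of the genes chosen in the same way for replicate 1, 2 of 10 were lower than in all other samples, and for replicate 5, 2 of 5. WBGene00018101, a pseudogene on chromosome II from 1767811 to 1770955, had 181, 150, 155, 90.9 and 88.4 CPM in Ag worms, 157, 134, 106, 83.8 and 89.4 CPM in SiO2 worms, and 177, 162, 156, 38.5 and 89.6 CPM in Control worms. Math-3, a neighbouring MATH domain gene at 1772085 to 1778542, had 73.6, 61.6, 61.5, 43.9 and 45.2 CPM in Ag worms, 69.1, 56.4, 51.4, 43.3 and 46.4 CPM in SiO2 worms, and 81.0, 63.0, 67.2, 19.1 and 42.6 CPM in Control worms. In both genes Control replicate 4 was the lowest of 15 samples, and the last 2 samples by number were the 2 lowest in each group. Math-3 shares exonic bases with math-26, which showed the same order of the Control replicates. Another stretch of chromosome II held K09F6.6, K09F6.7, K09F6.9 and K09F6.10 between 2276742 and 2292127, and K09F6.10 had 20.4, 17.8, 19.4, 4.73 and 10.2 CPM in Control. Tos-1, a gene whose splicing is used as a readout of splicing factors, had 455, 461, 444, 188 and 250.3 CPM. Without replicate 4 the SD of WBGene00018101 was 0.42, of math-3 0.36 and of K09F6.10 0.43, values that their choice by replicate 4 sets in part.

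For these genes the samples with the 2 highest numbers in each group, replicates 9 and 10 of Ag, 14 and 15 of SiO2, and 4 and 5 of Control, went together. Of the 24 variable genes with Control replicate 4 lowest and replicates 1 and 5 not both above the rest, 12 had replicates 9 and 10 as the 2 lowest in Ag and also 14 and 15 as the 2 lowest in SiO2, samples that did not choose the genes. Among all 9415 genes that share was 6.55%. Over the same 9415 genes these samples were the 2 lowest in every group for 367 genes and the 2 highest in every group for 821 genes. This count was made after the values were seen, the labels name no batch, and the part of sample number in the group comparisons was tested only as the added term described with the alternatives.

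In replicate 4, 6 genes were at least 2-fold higher than the median of the other Control samples: myo-2, pqn-75, marg-1, ZK218.5, R08F11.7 and Y8A9A.2. All 6 were also above all 14 other samples, which their choice by replicate 4 sets in part. Of the genes chosen in the same way for replicate 1, 1 of 9 was above all other samples, and for replicate 5, 1 of 6. Myo-2, a myosin heavy chain gene of pharyngeal muscle on chromosome X from 12468061 to 12475348, had 157, 144, 115.3, 160.2 and 183 CPM in Ag worms, 179, 175, 213, 170 and 291 CPM in SiO2 worms, and 184, 197, 190, 394 and 149 CPM in Control worms. Myo-1, the other pharyngeal myosin, had 187, 192, 176, 350 and 143 CPM in Control. The pharyngeal list as a whole took 0.101, 0.109, 0.113, 0.161 and 0.0838% of the reads, so replicate 4 was the highest there as well.

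**Figure D5:**
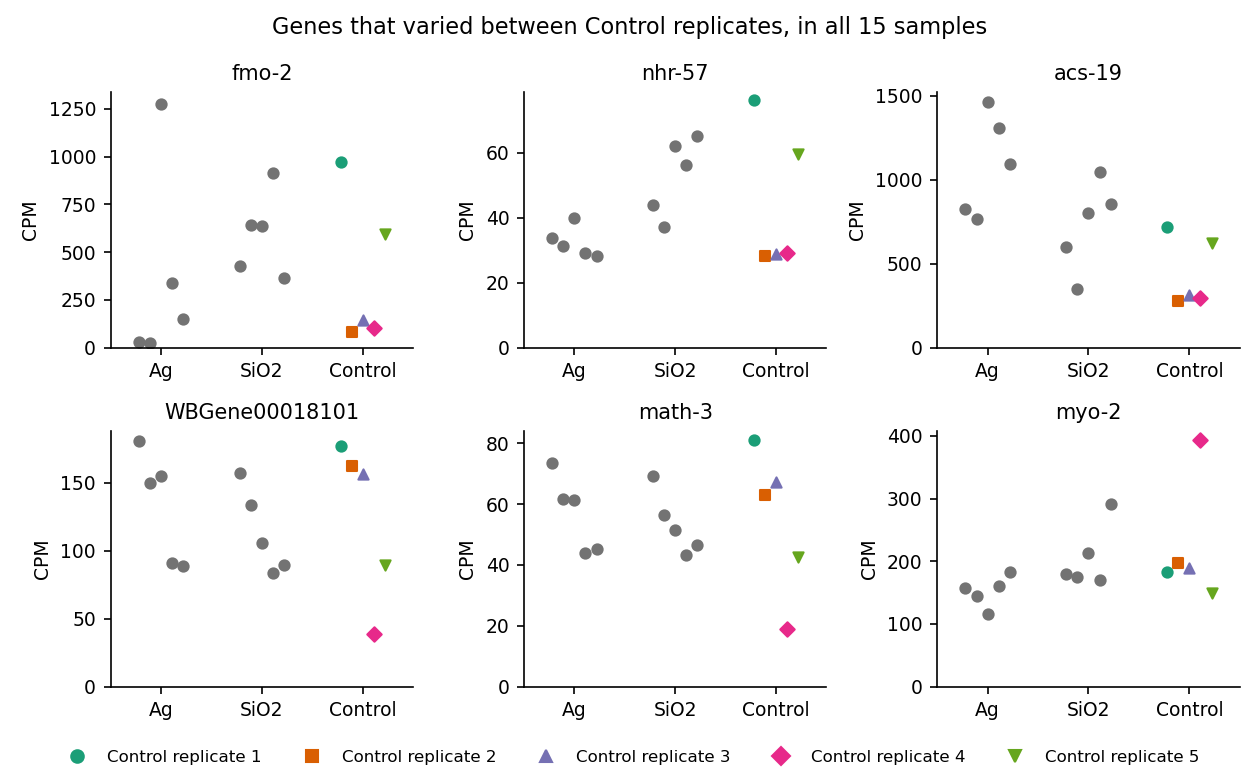
CPM of 6 genes that varied between Control replicates, 1 point per sample, with Ag, SiO2 and Control from left to right and the Control replicates in colour. Fmo-2, nhr-57 and acs-19 are high in Control replicates 1 and 5, WBGene00018101 and math-3 are lowest of all 15 samples in replicate 4, and myo-2 is highest there at 394 CPM.

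Some genes that varied in Control also varied in the exposed worms, whose samples did not choose them. Of the 78 variable genes 24, or 30.8%, had an SD of at least 0.5 within the Ag samples, where 4.22% of the 9415 genes did. In the SiO2 samples 26, or 33.3%, did so, where the share over all genes was 1.37%.

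The levels in Control served as the reference for both exposures, and both comparisons share the 5 Control samples. By edgeR's quasi-likelihood test with Benjamini-Hochberg adjustment at 0.05, 7.76% of 20669 genes were called between Ag and Control and 2.66% of 20739 between SiO2 and Control. These are 1604 and 551 genes. Both counts depend on the samples and the model: without Control replicate 3 there were 353 for Ag and 282 for SiO2, and with a term for the 2 highest sample numbers of each group, chosen after seeing the data, 3332 and 822. Of the 2058 abundant genes 79 were higher and 97 lower in Ag worms, and 10 were higher and 25 lower in SiO2 worms. Of the 20 genes with the most reads, 3 were called in Ag worms and 1 in SiO2 worms. Vit-6 had 20322, 20001, 19902, 21524 and 19873 CPM in Ag worms, all above the Control range of 14672 to 17530 CPM, and the log2 difference was 0.34 ± 0.085 (SE), with an adjusted p of 0.0299. COX3 was lower in Ag worms by a log2 difference of -0.57 (adjusted p = 0.0236).

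Cpr-1 was called in both comparisons. It had 1378, 1234, 1922, 1345 and 1416 CPM in Ag worms, 3898, 3809, 4022, 3917 and 3788 CPM in SiO2 worms, and 1854, 2690.2, 2018, 2055 and 1833 CPM in Control worms. All SiO2 samples were above all Control samples, with a log2 difference of 0.90 ± 0.11 (SE) and an adjusted p of 0.000146, and 1 of the 5 Ag samples was inside the Control range, with a log2 difference of -0.48 ± 0.14 and an adjusted p of 0.0440. The Ag calls among the 20 genes were not stable: none of the 3 passed without Ag replicate 9, Control replicate 2 or Control replicate 3, whereas the SiO2 call of cpr-1 passed in all 17 alternatives. Of the 78 variable genes 9 were higher and 3 lower in Ag worms, and 4 were higher and 5 lower in SiO2 worms, with acs-19 (log2 difference 1.33) and fil-2 (-1.65) called in Ag and col-93 (1.68) and col-81 (1.79) called in SiO2 under each of the 17 alternatives. Without Ag replicate 9 there were 7 calls among the 78 in Ag worms, and without Control replicate 2, 3 or 4 there were 6. Of the 10 steadiest genes pqn-52 was called in Ag worms (log2 difference 0.39, adjusted p = 0.0209).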

How the data were processed

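Per the labels and the study's methods, single-end reads of 100 bases were trimmed (Trim Galore 0.4.5), aligned to WBcel235 with HISAT2 2.1.0 and counted per gene with HTSeq 0.9.1 in intersection-strict mode on Ensembl release 91, and the authors deposited raw read counts. The authors also deposited estimated counts (expected counts) from Kallisto and tximport, whose versions are not given in the sources used here. These were rounded to whole numbers and used as an alternative. Whether HTSeq used strand is not given in the sources used here, so reads of genes that overlap on opposite strands, vit-2, eef-1A.1, rrn-3.1, act-4, sca-1, sqt-3, unc-44 and cysl-2 among them, cannot be told apart.

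CPM was computed over the table total of each sample and averaged over the 5 Control samples, and TPM from the joined exon length of each gene. The annotation used here named 46603 of 46778 genes, and 175 had no exon length. SDs of log2 CPM used TMM scaling, a prior count of 2 and genes of at least 3 reads over the samples. Each exposure was set against Control with edgeR 4.0.16 (quasi-likelihood F test, TMM, at least 3 reads over 10 samples, Benjamini-Hochberg adjustment at 0.05) in R 4.3.3, and DESeq2 1.42.0 was an alternative. These steps were tested on simulated data. The Control samples held 17693844 to 23678845 counted reads, so that 1 CPM stood for 17.7 to 23.7 reads.

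The gene lists were written from general knowledge of the tissues, and 6 of their symbols were not found in the table. The samples, classes and lists were chosen with earlier results of these data known. Genes named were the 20 highest by CPM, the 10 highest per kilobase, the 3 highest and the most variable member of each tissue list, the 20 most variable, the 10 steadiest and the defining markers. Others were named after their values were seen. Alternatives were other scalings, class borders, priors, filters and tools, the Kallisto estimates, and leaving out each sample.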

Additional observations from a re-analysis of the deposited data

Results flagged for a closer look

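In 9 of 185 values examined over the 5 Control samples, 137 of single genes and 48 of lists and classes, 1 sample lay far from the other 4 by Dixon's ratio of gap to range, a measure that chance passes in about 1 of 20 groups. Replicate 4 was the far sample for both pharyngeal myosins: myo-2 had 393.7 CPM there and 149 to 196.9 CPM in the other 4, and myo-1 had 350.3 CPM there and 143 to 192.1 CPM in the others. Replicate 2 was the highest for cpr-1, the gut cysteine protease gene, with 2690.0 CPM and 1833 to 2055 CPM in the others, for the chemoreceptor gene str-176, with 54.8 CPM and 38.7 to 43.3 CPM, and for cah-4, a carbonic anhydrase gene, with 147.7 CPM and 119.8 to 126.5 CPM.

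Tax-2, a cyclic nucleotide-gated channel subunit gene of sensory neurons, had 1.47 CPM in replicate 5 and 2.60 to 3.02 CPM in the others. Allo-1, F08F8.9 and dnj-20 belong to the 10 steadiest genes: allo-1 had 182.9 CPM in replicate 1 and 166 to 170.0 CPM in the others, F08F8.9 had 132 CPM in replicate 3 and 126 to 127 CPM, and dnj-20, a DnaJ chaperone gene, had 362 CPM in replicate 5 and 388 to 393 CPM.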

How the results depend on the processing

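The size of the level classes stayed within 1.5 times in 46 of 48 alternatives, with 5130 to 7587 barely detected and 9820 to 13367 moderate genes: with a border of 50 CPM 4297 genes were abundant, and among protein coding genes alone 919 were undetected. Per kilobase of exon the gut lists took 5.21%, germline 1.08%, muscle 1.21%, cuticle 2.535% and neurons 0.506% of the total, and the gut share was 9.58% in the Kallisto estimates. Leaving out 1 Control sample at a time gave 2039 to 2086 abundant, 11969 to 12139 moderate, 7221 to 7358 barely detected and 25286 to 25443 undetected genes, and shares of 8.58 to 8.87% for gut, 1.24 to 1.39% for germline, 1.485 to 1.62% for muscle, 2.13 to 2.28% for cuticle and 0.557 to 0.589% for neurons. Variable genes numbered 162 with a robust SD and 543 from 1 CPM up, and 51 to 124 without 1 sample, 51 being without replicate 4 and 124 without replicate 2. Without replicates 1 and 5 together, an alternative chosen after seeing the data, there were 77, and 33 of them were among the 78. The Ag comparison had 1604 calls, 3167 by DESeq2 and 353 to 1833 without 1 sample: 878 without Ag replicate 7, 693 without Ag 9, 988 without Ag 10, 445 without Control 2, 353 without Control 3 and 511 without Control 4. A term for the 2 highest sample numbers of each group, also chosen after seeing the data, gave 3332 calls for Ag and 822 for SiO2. The SiO2 comparison had 551 calls, 995 by DESeq2, 222 in a fit of all 15 samples and 251 to 853 without 1 sample: 263 without SiO2 12, 277 without SiO2 13, 853 without SiO2 15, 251 without Control 1, 282 without Control 3 and 275 without Control 5. The cause of these moves was not tested. No direction of a named call turned in any alternative. No paired analysis was possible because sample numbers run on over the groups and none is shared. With 5 samples of whole worms, the data give no level per cell, and genes read in few cells may fall under 1 CPM.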

Other observations

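All 12 somatic gonad genes reached 1 CPM, 3 of them abundant, and took 0.135 ± 0.00677% of the reads (SD, n = 5), led by nmy-1 (501 CPM), a non-muscle myosin gene, and fln-1 (463 CPM), a filamin gene of the spermatheca. Of 10 genes of the excretory system and glia 1 was abundant, vha-5 (196 CPM), a vacuolar ATPase subunit gene of the excretory canal, and 9 were moderate. The 3 coelomocyte genes, which mark the scavenger cells of the body cavity, were all moderate with a median of 8.34 CPM.

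In metabolism 13 of 19 glycolysis genes were abundant and 6 moderate, at 0.427 ± 0.0136% of the reads, and of 79 lipid metabolism genes 28 were abundant, 41 moderate and 10 barely detected, at 1.55 ± 0.1099%. Genes named for visible mutants were well covered: 35 of 94 unc genes, named for uncoordinated movement, were abundant and 58 moderate, and of 25 dpy genes, named for a dumpy body, 12 were abundant, led by dpy-17 (1045 CPM). Of 240 clec genes of C-type lectins 134 were under 1 CPM, in the family that also held clec-63 with 3243 CPM.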
